A study of Mus musculus with 4 samples.

Results

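The genes described here are the heavy chains of MHC class I (*H2-K1*, *H2-D1*, *H2-Q7* and *H2-T23*), their light chain *B2m*, the peptide transporter (*Tap1* and *Tap2*), the loading factor *Tapbp* and the class I transactivator *Nlrc5*. They were taken by symbol from the rows of the UMI count matrix, and all 9 were found among its 18695 genes. The matrix held 3' single-cell RNA-seq of mouse bone marrow in 4 libraries, from 1 mouse of each genotype and 2 sorts of each mouse. *Tet2* KO stands for *Tet2* fl/fl crossed to Mx1-Cre, in which Cre is driven by the interferon-inducible Mx1 promoter, and WT stands for *Tet2* fl/fl mice without Cre. Both mice received pI:pC, a double-stranded RNA that induces interferon and with it Cre, in 4 intraperitoneal doses of 12.5 ug per g, so that the control had also been exposed to it. Mice of the study were 8 to 12 weeks old, and the interval between the last dose and harvest was not given for these libraries. The GMP sort (granulocytic-monocytic progenitors) took Lin- cKit+ Sca1- CD34+ CD16/32+ cells, and the Lin-/CD11b+ sort took Lin- progenitors together with CD11b+ myeloid cells.

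MHC class I presents peptides of the cell's own proteins at its surface to CD8 T cells, and NK cells read its level. A heavy chain is folded with beta-2-microglobulin in the endoplasmic reticulum, where tapasin holds it next to the TAP transporter that brings in peptides cut by the proteasome and immunoproteasome. *H2-K1* and *H2-D1* encode the classical heavy chains, *H2-Q7* a Qa-2 and *H2-T23* the Qa-1 non-classical chain, and interferons raise transcription of most of these genes through factors such as IRF1 and NLRC5.

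The libraries held 1258 cells and 22890469 UMIs (WT GMP), 2719 and 42561110 (*Tet2* KO GMP), 1924 and 22681380 (WT Lin-/CD11b+) and 3068 and 34024599 (*Tet2* KO Lin-/CD11b+), with median depths of 10417 to 18713 UMIs per cell. Supplementary information of the study lists the cell numbers of the *Tet2* KO GMP and WT Lin-/CD11b+ libraries the other way round, and the deposited assignment was used here. By that assignment *Tet2* KO GMP held 0 plasma cell-like and 0 neutrophil-like cells, as WT GMP held 0 and 1, and WT Lin-/CD11b+ held 158 and 150, so that the cell types went with the sort labels. Between libraries, 37 cell barcodes occurred in a pair of them (74 cells). *Tet2* was at 13.02 and 13.40 CPM (UMIs of a gene scaled by the total of the library) in the WT GMP and Lin-/CD11b+ libraries and higher in *Tet2* KO, at 16.99 and 20.66 CPM, and since 3' UMIs need not come from the deleted exons, they do not check the genotype. Clustering without the class I pathway genes, but with MHC class II and interferon-stimulated genes kept, gave 16 clusters. Marker genes placed these in 10 cell types, with clusters 12 and 13 left unnamed. Because each genotype was 1 mouse, no test between genotypes was possible, every interval given is an exact 95% interval that covers counting error only, and differences between the mice other than *Tet2* cannot be told apart from it. The sorts of a genotype came from the same mouse and were not independent replicates.

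The promoter windows of the member heavy chains and the light chain are shown for comparison of the letters known from class I promoters. Each runs from 200 bases before to 20 bases after the RefSeq start (GRCm38.p6) and reads 5′ to 3′ on the strand of the gene. Capitals mark matches, on either strand, to CCAAT (the Y box), TGACG (an X2 part), GGGGATTCCCC (a kappa B palindrome) or its first 9 letters, AGTTTCACTTCT (the interferon consensus of class I promoters) and GAAANNGAAA (an interferon response core), and neighbouring matches can overlap.
*H2-K1*, chr17:34000328-34000547, - strand: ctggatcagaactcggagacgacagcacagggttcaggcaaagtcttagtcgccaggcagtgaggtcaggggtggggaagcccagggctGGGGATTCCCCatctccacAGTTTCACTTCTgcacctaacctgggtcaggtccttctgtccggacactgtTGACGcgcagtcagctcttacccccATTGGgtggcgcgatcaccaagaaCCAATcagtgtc
*H2-D1*, chr17:35262894-35263113, + strand: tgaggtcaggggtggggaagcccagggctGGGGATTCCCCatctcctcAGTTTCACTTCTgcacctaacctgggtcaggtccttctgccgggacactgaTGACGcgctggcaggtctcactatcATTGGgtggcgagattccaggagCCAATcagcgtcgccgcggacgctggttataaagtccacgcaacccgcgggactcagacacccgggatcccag
*H2-Q7*, chr17:35438955-35439174, + strand: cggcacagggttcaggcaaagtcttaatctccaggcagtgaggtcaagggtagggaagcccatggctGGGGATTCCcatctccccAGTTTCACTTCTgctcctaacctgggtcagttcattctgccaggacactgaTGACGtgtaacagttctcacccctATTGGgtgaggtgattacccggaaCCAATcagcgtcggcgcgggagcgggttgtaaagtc
*H2-T23*, chr17:36032682-36032901, - strand: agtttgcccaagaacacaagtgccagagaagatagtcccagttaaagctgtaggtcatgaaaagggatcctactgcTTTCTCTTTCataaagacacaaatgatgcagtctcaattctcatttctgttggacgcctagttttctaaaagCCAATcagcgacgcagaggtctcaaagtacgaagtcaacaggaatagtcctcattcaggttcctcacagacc
*B2m*, chr2:122147487-122147706, + strand: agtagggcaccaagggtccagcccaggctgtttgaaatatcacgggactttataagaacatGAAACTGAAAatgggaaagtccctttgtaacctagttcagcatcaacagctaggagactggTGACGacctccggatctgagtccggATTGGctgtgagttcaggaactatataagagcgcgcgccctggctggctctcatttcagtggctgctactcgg
The windows of *H2-K1* and *H2-D1* held the whole kappa B palindrome, which 9 of 32851 windows of this length held (0.0274%). *H2-Q7* held only its first 9 letters, found in 58 windows (0.177%). The interferon consensus stood in all 3 of these heavy chain windows.
It began 92 bases before the start in *H2-K1* (106 before the other of its 2 RefSeq starts, whose window is not shown), 152 in *H2-D1* and 115 in *H2-Q7*, and in 0.0274% of all windows. The windows of *H2-T23* and *B2m* held the interferon response core, at 124 and 139 bases before the start, a match present in 2.50% of windows. The shorter motifs were common, with CCAAT in 31.0% and TGACG in 17.3% of windows, and *H2-T23* was without TGACG. These matches describe letters only. Of the other members, the *Tap1* window held TGACG and the *Tapbp* window CCAAT, and *Tap2* and *Nlrc5* had no window here. On GRCm38 the genes lie at chr17:33996017-34000347 (*H2-K1*), chr17:35262730-35267499 (*H2-D1*), chr17:35439155-35443773 (*H2-Q7*), chr17:36029773-36032855 (*H2-T23*), chr17:34187553-34197225 (*Tap1*), chr17:34203527-34216321 (*Tap2*), chr17:33915899-33929292 (*Tapbp*), chr2:122147686-122153083 (*B2m*) and chr8:94434356-94527272 (*Nlrc5*), so that all but *B2m* and *Nlrc5* belong to the MHC on chromosome 17.

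Levels were first ordered over the 9 clusters and types of the WT Lin-/CD11b+ library that held at least 50 cells, and comparisons were made between types of a gene and not between genes, since 3' UMIs depend on the gene's end. The types differed in how much of their UMIs a few genes took: the 23 genes above 1% of any sum of this sort held 71.7% of the UMIs of plasma cell-like cells, 52.3% of those of neutrophil-like cells and at most 13.4% of those of the other 7. Levels over the remaining UMIs, an alternative chosen after the levels were seen, are given where they change which type stood highest or lowest. *H2-K1*, a classical heavy chain, was highest in HSPC-like cells (hematopoietic stem and early progenitor cells) at 715 CPM (689.7 to 741), next to cluster 13, an unnamed cluster led by *Dntt*, at 639 CPM (586 to 695), whose interval overlapped. It was lowest in neutrophil-like cells at 219 CPM (196 to 245). Over the remaining UMIs these were at 460.0 CPM (411 to 514), overlapping mono-biased GMP-like progenitors at 460.4 CPM (441 to 481), and plasma cell-like cells stood highest at 1409 CPM (1323 to 1499.6). *H2-D1*, the other classical chain, had a different order: monocyte-like cells stood highest at 1337 CPM (1292 to 1384), plasmacytoid DC-like cells second at 1133 CPM (1092 to 1176), and plasma cell-like cells lowest at 479.8 CPM (453 to 508). Over the remaining UMIs plasma cell-like cells were the highest instead, at 1697 CPM (1602 to 1796), next to neutrophil-like cells at 1561 CPM (1469 to 1658). Neutro-biased GMP-like progenitors were then lowest at 777 CPM (742 to 813). The place of plasma cell-like and neutrophil-like cells thus depends on the total used. Between HSPC-like and monocyte-like cells the classical chains thus went opposite ways in both genotypes, with *H2-K1* 1.59-fold (WT) and 1.87-fold (*Tet2* KO) higher in HSPC-like cells and *H2-D1* 1.61-fold and 1.41-fold higher in monocyte-like cells.

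*H2-Q7*, a Qa-2 chain, stood in WT Lin-/CD11b+ at 123 CPM (100.1 to 149) in cluster 13, 106 CPM (96.2 to 116) in HSPC-like and 87.8 CPM (65.4 to 115) in basophil-like cells, 3 groups whose intervals overlapped. It was at 55.9 CPM in neutro-biased GMP-like, 54.9 in plasmacytoid DC-like and 44.1 in plasma cell-like cells, and at 29.3 in mono-biased GMP-like, 20.8 in monocyte-like and 18.8 in neutrophil-like cells. Over the remaining UMIs plasma cell-like cells were at 156 CPM (128 to 188), overlapping cluster 13 at 131 CPM (107 to 159). Neutrophil-like cells were then at 39.4 CPM (26.0 to 57.4), overlapping mono-biased GMP-like progenitors at 31.5 CPM (26.6 to 37.1). Leaving these 2 types aside, the most *H2-Q7* was in cluster 13, HSPC-like and basophil-like cells, and the least in the monocytic types: HSPC-like over monocyte-like cells was 5.08-fold in WT and 6.70-fold in *Tet2* KO. *H2-T23*, whose product binds the NK receptor CD94/NKG2A, was highest in plasmacytoid DC-like cells at 155 CPM (140.1 to 172), apart from plasma cell-like cells at 122 CPM (108 to 136), and lowest in neutro-biased GMP-like progenitors at 23.7 CPM (18.1 to 30.4). Over the remaining UMIs plasma cell-like cells were above plasmacytoid DC-like cells, at 429.99 CPM (383 to 481) against 168 CPM (151 to 185).

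*B2m*, the light chain shared by all class I molecules, was highest in plasma cell-like cells at 3699 CPM (3624 to 3776) and monocyte-like cells at 3276 CPM (3205 to 3349), and lowest in neutrophil-like cells at 1707 CPM (1640.2 to 1776). Over the remaining UMIs plasma cell-like cells were again highest, and neutrophil-like cells, at 3578 CPM (3438 to 3722), overlapped monocyte-like cells at 3599 CPM (3521 to 3679). The lowest were then neutro-biased GMP-like progenitors at 2177 CPM (2118 to 2237). The TAP subunits differed in how steep their order was. *Tap2* stood at 161 CPM (135 to 190.2) in cluster 13 and 113 CPM (103 to 123) in HSPC-like cells against 29.0 CPM (22.6 to 36.6) in monocyte-like cells, so that HSPC-like over monocyte-like was 3.88-fold in WT and 4.13-fold in *Tet2* KO. Neutrophil-like cells were lowest at 22.3 CPM (15.3 to 31.5). Over the remaining UMIs they were at 46.7 CPM (32.0 to 66.0), and monocyte-like cells were lowest at 31.8 CPM (24.9 to 40.2). Plasma cell-like cells went from 28.9 to 102 CPM (79.9 to 129), overlapping HSPC-like cells at 119.8 CPM (109 to 131). *Tap1* was flatter at the top, with 76.2 CPM (58.7 to 97.3) in cluster 13, 73.4 CPM (63.0 to 84.9) in plasmacytoid DC-like, 57.1 CPM (50.1 to 64.9) in HSPC-like and 56.7 CPM (47.7 to 67.0) in monocyte-like cells, each overlapping the next. Plasma cell-like cells were lowest at 19.3 CPM (14.2 to 25.5). Over the remaining UMIs they were at 68.1 CPM (50.2 to 90.3), overlapping cluster 13 at 81.5 CPM (62.7 to 104). Neutro-biased GMP-like progenitors were then lowest at 29.0 CPM (22.5 to 36.6). *Tapbp*, which encodes tapasin, was highest in plasmacytoid DC-like cells at 129 CPM (115 to 144) and lowest in neutro-biased GMP-like progenitors at 38.0 CPM (30.9 to 46.4). By the remaining UMIs its highest level was that of plasma cell-like cells at 241 CPM (206 to 280.4). *Nlrc5* was near the limit of counting everywhere, between 0 CPM in neutrophil-like cells, where no UMI was seen (which allows up to 2.09 CPM by the limit of 3 UMIs and up to 2.57 CPM by the exact interval), and 6.27 CPM (4.09 to 9.18) in HSPC-like cells.

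**Figure D1:**
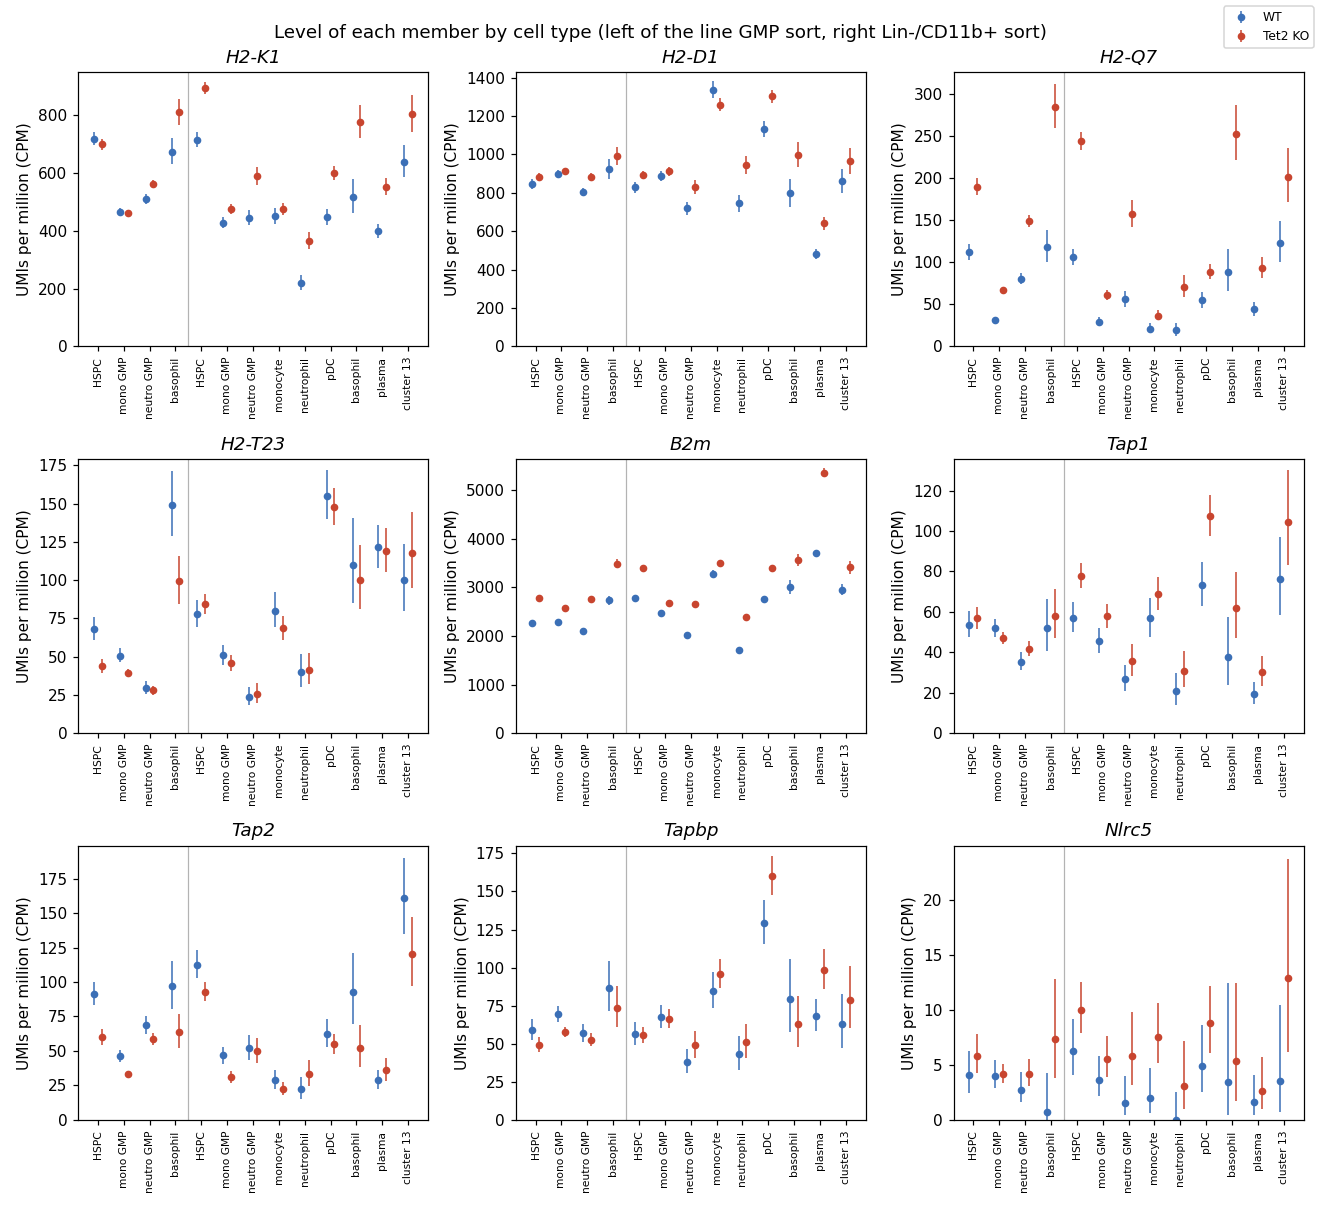
Level of each of the 9 genes (CPM, linear axes from 0) by cell type, with WT and *Tet2* KO told apart by colour, the GMP sort left and the Lin-/CD11b+ sort right of the grey line, and 95% counting intervals as bars. *H2-Q7* of *Tet2* KO lies above WT in every type, from 18.8 against 70.7 CPM in neutrophil-like cells to 106 against 244 CPM in Lin-/CD11b+ HSPC-like cells.

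*Tet2* KO was then compared with WT within each sort and cell type with at least 50 cells in both libraries, which gave 13 comparisons (4 in the GMP sort and 9 in Lin-/CD11b+). *H2-Q7* was higher in *Tet2* KO in all 13, by 1.61-fold to 3.76-fold with a median of 2.10-fold, and each interval lay above equal levels. Of all genes, 3.9% to 23% were at least 1.5-fold higher in these comparisons. No other member was past 1.5-fold in every comparison. In each comparison *H2-Q7* stood above 93.3% to 99.4% of the genes with at least 20 UMIs in both libraries together, which is the count minimum used for every ratio here.

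In HSPC-like cells *H2-Q7* was at 112 CPM in WT GMP, 189.7 in *Tet2* KO GMP, 106 in WT Lin-/CD11b+ and 244 in *Tet2* KO Lin-/CD11b+. *Tet2* KO was higher by 1.70-fold (1.54 to 1.88) in the GMP sort and by 2.30-fold (2.07 to 2.56) in Lin-/CD11b+. Of all genes, 3.94% and 8.52% were at least 1.5-fold higher in these comparisons. Mono-biased GMP-like progenitors held 30.9 CPM in WT GMP, 66.4 in *Tet2* KO GMP, 29.3 in WT Lin-/CD11b+ and 60.6 in *Tet2* KO Lin-/CD11b+. Neutro-biased GMP-like progenitors held 80.5 CPM in WT GMP, 149 in *Tet2* KO GMP, 55.9 in WT Lin-/CD11b+ and 158 in *Tet2* KO Lin-/CD11b+. The ratios for mono-biased and neutro-biased cells were 2.15-fold (1.90 to 2.44) and 1.85-fold (1.68 to 2.04) in the GMP sort, and 2.07-fold (1.70 to 2.52) and 2.82-fold (2.32 to 3.44) in Lin-/CD11b+. In basophil-like cells the level was 118 CPM in WT GMP, 284 in *Tet2* KO GMP, 87.8 in WT Lin-/CD11b+ and 253 in *Tet2* KO Lin-/CD11b+. In all of these types the values of a genotype came from the sorts of 1 mouse and were not replicates. The other types were compared in the Lin-/CD11b+ sort alone. Monocyte-like cells were at 20.8 CPM in WT and 36.3 CPM in *Tet2* KO. Neutrophil-like cells were at 18.8 CPM in WT and 70.7 CPM in *Tet2* KO. Plasmacytoid DC-like cells were at 54.9 CPM in WT and 88.4 CPM in *Tet2* KO. *Tet2* KO stood higher in each of these myeloid and dendritic types. Plasma cell-like cells held 44.1 CPM in WT and 92.9 CPM in *Tet2* KO, and cluster 13 held 123 CPM in WT and 201 CPM in *Tet2* KO. The neutrophil-like ratio was the largest, 3.76-fold (2.46 to 5.95), and rested on 27 and 115 UMIs. Over the UMIs left without the abundant genes *H2-Q7* was at 39.4 CPM (26.0 to 57.4) in WT and 131 CPM (109 to 158) in *Tet2* KO in neutrophil-like cells. In plasma cell-like cells it was at 156 CPM (128 to 188) and 280.4 CPM (244 to 321). Both were still higher in *Tet2* KO. The smallest ratio was that of plasmacytoid DC-like cells sorted as Lin-/CD11b+.

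A larger share of cells held *H2-Q7* in *Tet2* KO. After thinning every cell to 5000 UMIs, a UMI of *H2-Q7* was seen in 38.4% (32.4 to 44.6%) of HSPC-like cells in WT GMP and 57.1% (52.6 to 61.6%) in *Tet2* KO GMP. In the Lin-/CD11b+ sort the shares were 35.2% (30.0 to 40.6%) and 65.4% (61.8 to 68.8%). Without thinning the 4 shares were 73.6%, 87.8%, 60.9% and 83.9%. For monocyte-like cells the thinned shares were 8.76% in WT and 14.4% in *Tet2* KO, with overlapping intervals. For mono-biased GMP-like progenitors of the GMP sort they were 14.8% and 25.5%. For *Tap2*, whose level in HSPC-like cells was lower in *Tet2* KO in both sorts, the thinned shares in HSPC-like cells were 39.1% (33.2 to 45.4%) and 26.9% (upper limit 31.1%) in WT and *Tet2* KO GMP and 45.0% (39.5 to 50.5%) and 39.4% (35.8 to 43.1%) in WT and *Tet2* KO Lin-/CD11b+, so the intervals overlapped in the Lin-/CD11b+ sort and not in the GMP sort. The unthinned *Tap2* shares, in the same order, were 80.2%, 60.7%, 70.3% and 60.2%. No cell type here should lack class I, so free RNA could not be set against a type without it, and its part was not tested.

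**Figure D2:**
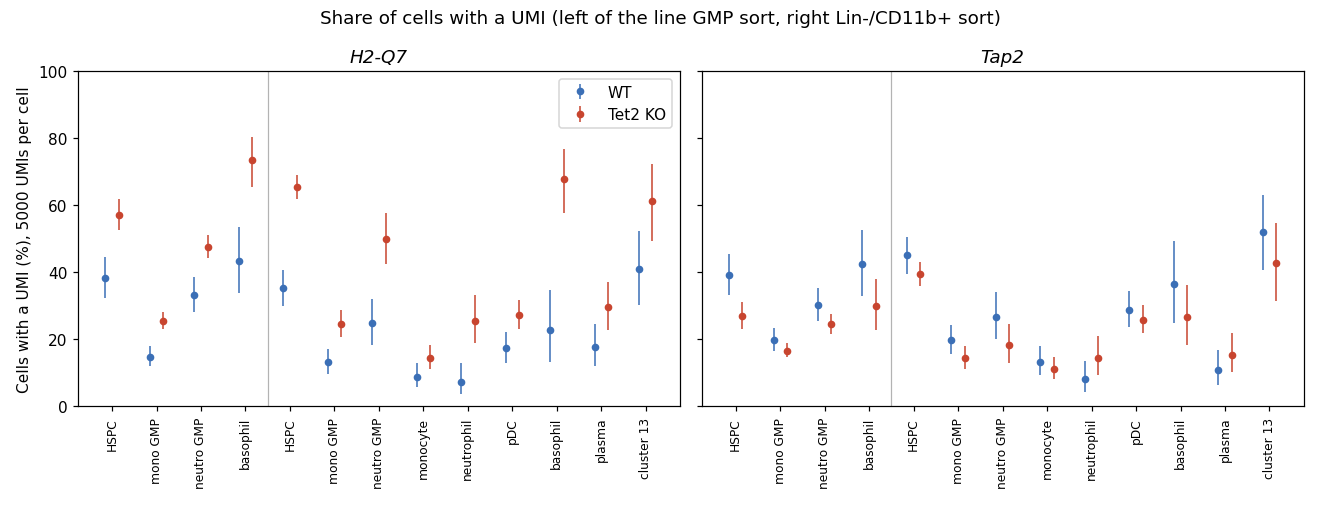
Share of cells (%) with at least 1 UMI after thinning to 5000 UMIs per cell, for *H2-Q7* and *Tap2* by cell type, coloured by genotype, with the GMP sort left of the grey line and exact binomial 95% intervals as bars. For *H2-Q7* in HSPC-like cells the points of *Tet2* KO, at 57.1% and 65.4%, stand above those of WT, at 38.4% and 35.2%.

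The classical heavy chains differed less. *H2-K1* was above WT in 11 of 13 comparisons (median log2 ratio 0.32, range -0.04 to 0.74) and past 1.5-fold only in neutrophil-like and Lin-/CD11b+ basophil-like cells, and in neither with TMM scaling. In HSPC-like cells *H2-K1* was at 719 CPM in WT GMP, 699 in *Tet2* KO GMP, 715 in WT Lin-/CD11b+ and 893 in *Tet2* KO Lin-/CD11b+. Only the *Tet2* KO Lin-/CD11b+ value stood apart, and the log2 ratio was -0.04 (-0.10 to 0.02) in the GMP sort and 0.32 (0.26 to 0.38) in Lin-/CD11b+. *H2-D1* did not reach 1.5-fold in any comparison (median 0.14, range -0.09 to 0.42). In HSPC-like cells it was at 847 CPM in WT GMP, 884 in *Tet2* KO GMP, 828 in WT Lin-/CD11b+ and 891 in *Tet2* KO Lin-/CD11b+. In monocyte-like cells it was at 1337 CPM in WT and 1259 CPM in *Tet2* KO, where *Tet2* KO was lower with a log2 ratio of -0.09 (-0.15 to -0.02). *H2-T23* was at 68.1 CPM in WT GMP, 43.8 in *Tet2* KO GMP, 77.9 in WT Lin-/CD11b+ and 84.4 in *Tet2* KO Lin-/CD11b+ in HSPC-like cells. The GMP sort of *Tet2* KO was the low value, with a log2 ratio of -0.64 (-0.86 to -0.42), and Lin-/CD11b+ HSPC-like cells, whose mix of clusters differed, gave 0.12 (-0.08 to 0.31), with an interval across 0. By cluster its log2 ratio was -0.52 and -0.65 in clusters 3 and 7 of the GMP sort and -0.19, 0.09 and 0.23 in clusters 3, 7 and 8 of Lin-/CD11b+, the last 3 with intervals across 0. Over the 13 comparisons *H2-T23* was past 1.5-fold lower in 2, the HSPC-like and basophil-like cells of the GMP sort, and in neither with TMM scaling. In basophil-like cells of that sort it was at 149 CPM in WT and 99.2 CPM in *Tet2* KO, a log2 ratio of -0.59 (-0.90 to -0.28).

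The light chain *B2m* was higher in *Tet2* KO in all 13 comparisons, each time with an interval above equal levels, but by less than 1.5-fold (log2 ratio 0.09 to 0.54, median 0.29). Its ratio stood above those of 58.6% to 91.9% of the genes at the count minimum. All 13 comparisons set the same 2 mice against each other, and counting intervals are narrow for a gene with so many UMIs. In HSPC-like cells it was at 2276 CPM in WT GMP, 2786 in *Tet2* KO GMP, 2774 in WT Lin-/CD11b+ and 3394 in *Tet2* KO Lin-/CD11b+. Plasma cell-like cells were at 3699 CPM in WT and 5361 CPM in *Tet2* KO. Each *Tet2* KO value of these lay above its WT value of the same sort. By their medians the subunits of the peptide transporter went opposite ways. *Tap1* had a median log2 ratio of 0.41 (range -0.14 to 0.71) and was past 1.5-fold higher in basophil-like and plasma cell-like cells sorted as Lin-/CD11b+, with log2 ratios of 0.71 (-0.02 to 1.49) and 0.65 (0.10 to 1.21), the first on 22 and 58 UMIs and with an interval across 0. In plasma cell-like cells it was at 0.50 with TMM scaling, and with cells gated on markers the ratios were 0.56 and 0.35, all within 1.5-fold. *Tap2* had a median of -0.36 (range -0.83 to 0.57), was below WT in 11 of 13 comparisons and past 1.5-fold lower in 4 (HSPC-like and basophil-like cells of the GMP sort, mono-biased GMP-like and basophil-like cells in Lin-/CD11b+). The *Tap2* ratio of HSPC-like cells of the GMP sort was -0.54 with TMM scaling, within 1.5-fold, and with the mean over cells of CPM, with clusters at resolution 1.2 and without cells at 5% mitochondrial UMIs 2 of the 4 were within 1.5-fold, while that of Lin-/CD11b+ basophil-like cells was past it in each of these settings. In HSPC-like cells *Tap1* was at 53.7 CPM in WT GMP, 56.8 in *Tet2* KO GMP, 57.1 in WT Lin-/CD11b+ and 77.9 in *Tet2* KO Lin-/CD11b+. *Tap2* was there at 91.3 CPM in WT GMP, 60.0 in *Tet2* KO GMP, 113 in WT Lin-/CD11b+ and 92.9 in *Tet2* KO Lin-/CD11b+. Each *Tap2* value of *Tet2* KO lay below the WT value of its sort, though the *Tet2* KO Lin-/CD11b+ value was level with WT GMP, with log2 ratios of -0.60 (-0.79 to -0.41) and -0.28 (-0.45 to -0.11), whereas *Tap1* gave 0.08 (-0.14 to 0.30) and 0.45 (0.23 to 0.67). In monocyte-like cells *Tap1* was at 56.7 CPM in WT and 68.7 CPM in *Tet2* KO and *Tap2* at 29.0 CPM in WT and 22.5 CPM in *Tet2* KO.

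*Tapbp* was past 1.5-fold in no comparison (median log2 ratio -0.02, range -0.33 to 0.53), at 58.8 CPM in WT GMP, 49.1 in *Tet2* KO GMP, 56.4 in WT Lin-/CD11b+ and 55.6 in *Tet2* KO Lin-/CD11b+ in HSPC-like cells. The log2 ratio of these was -0.26 (-0.48 to -0.03) in the GMP sort and -0.02 (-0.25 to 0.22) in Lin-/CD11b+, the latter with an interval across 0. *Nlrc5*, whose product activates class I promoters, reached the count minimum in 7 comparisons, was above WT in each and past 1.5-fold higher in 5, with an interval above equal levels in 2. Some reached it through *Tet2* KO, with WT below 20 UMIs: monocyte-like (5 and 32 UMIs), plasmacytoid DC-like (12 and 35), Lin-/CD11b+ mono-biased (18 and 36) and GMP-sort neutro-biased cells (18 and 51). Their direction was thus not independent of the minimum. The count of 5 became 3 with the mean over cells of CPM, 10 with a filter of 1 UMI and 1 with a filter of 100 UMIs. In HSPC-like cells it was at 4.06 CPM in WT GMP, 5.85 in *Tet2* KO GMP, 6.27 in WT Lin-/CD11b+ and 10.0 in *Tet2* KO Lin-/CD11b+, with log2 ratios of 0.53 (-0.26 to 1.37) and 0.68 (0.02 to 1.38). By cluster of these cells the sign differed, with intervals across 0 in clusters 3 and 8: cluster 3 had log2 ratios of -0.57 (-1.58 to 0.45) and -0.35 (-1.69 to 1.05) in the GMP and Lin-/CD11b+ sorts and cluster 7 of 2.38 (0.66 to 4.75) and 1.57 (0.28 to 3.13). Cluster 8 of Lin-/CD11b+ had 0.46 (-0.54 to 1.59). Among the 7 comparisons at the count minimum its largest ratio was in monocyte-like cells, at 2.04 CPM in WT and 7.50 CPM in *Tet2* KO, and rested on 5 and 32 UMIs, and plasmacytoid DC-like cells held 4.92 CPM in WT and 8.77 CPM in *Tet2* KO. Most intervals of *Nlrc5* between cell types overlapped, so its order of types could be read only in part. HSPC-like cells of WT Lin-/CD11b+ (4.09 to 9.18 CPM) lay above neutro-biased GMP-like (upper limit 3.97) and neutrophil-like cells (upper limit 2.57). Those of *Tet2* KO Lin-/CD11b+ (7.92 to 12.5 CPM) lay above mono-biased GMP-like (upper limit 7.64), neutrophil-like (7.18) and plasma cell-like cells (5.72). Cluster 12 of that library lay above its HSPC-like cells.

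**Figure D3:**
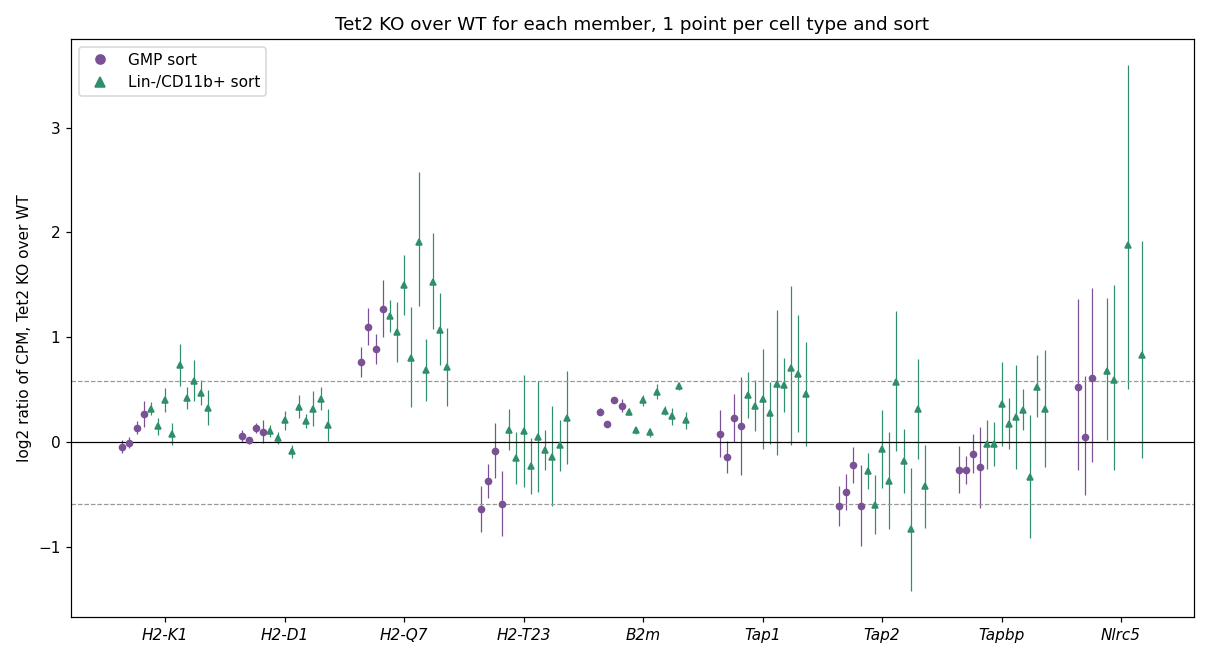
Log2 ratio of *Tet2* KO over WT for each member in the 13 comparisons of a cell type within a sort, with 95% counting intervals as bars, the sorts told apart by marker and ratios based on at least 20 UMIs shown. *H2-Q7* lies between 0.69 and 1.91 and *B2m* between 0.09 and 0.54, while *Tap2* reaches from -0.83 to 0.57.

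Counted by comparison, members past 1.5-fold were read against the same share over all genes at the count minimum. In HSPC-like cells of the GMP sort 1 of 9 was higher (*H2-Q7*, background 3.94%) and 2 were lower (*H2-T23* and *Tap2*, background 7.41%). In mono-biased GMP-like progenitors of that sort 1 was higher (background 3.9%) and none lower (background 5.42%), and in neutro-biased GMP-like progenitors 2 were higher (*H2-Q7* and *Nlrc5*, background 4.46%) and none lower (background 6.11%). In basophil-like cells of that sort 1 of 8 was higher (background 7.56%) and 2 were lower (background 10.4%). *H2-Q7* was the only member past 1.5-fold in all 4.

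In the Lin-/CD11b+ sort the higher members were *H2-Q7* and *Nlrc5* in HSPC-like (background 8.52%), mono-biased GMP-like (6.96%), monocyte-like (8.16%) and plasmacytoid DC-like cells (9.02%). They were *H2-Q7* alone in neutro-biased GMP-like progenitors (8.04%) and cluster 13 (8.32%), *H2-Q7* and *H2-K1* in neutrophil-like cells (23%), *H2-Q7*, *H2-K1* and *Tap1* in basophil-like cells (15%), and *H2-Q7* and *Tap1* in plasma cell-like cells (15.9%). Lower was *Tap2* alone, in mono-biased GMP-like (background 4.75%) and basophil-like cells (10.2%), and no member was lower in HSPC-like (3.34%), neutro-biased GMP-like (6.01%), monocyte-like (6.62%), neutrophil-like (5.49%), plasmacytoid DC-like (6.12%), plasma cell-like (7.97%) cells or cluster 13 (10.5%). Over all 13 comparisons 22 member ratios were past 1.5-fold higher and 6 lower (3 lower with TMM scaling), and 13 of the 22 were those of *H2-Q7*. The median log2 ratio of the members was 0.06 against -0.06 for all genes in HSPC-like cells of the GMP sort, 0.29 against 0.03 in those of the Lin-/CD11b+ sort, and 0.31 against 0.01 in plasmacytoid DC-like cells. In neutrophil-like and plasma cell-like cells the median over all genes stood at 0.25 and 0.13, and TMM scaling moved these medians by -0.24 and -0.15. The highest backgrounds of higher genes were in those types and in Lin-/CD11b+ basophil-like cells.

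Set in their order along the MHC on chromosome 17, the genes differed in their ratios from neighbour to neighbour. *H2-Q6*, the neighbouring Qa-2 gene at chr17:35424850-35430055, was most like *H2-Q7*, with a median log2 ratio of 0.82 (range -0.0034 in monocyte-like cells to 2.27 in Lin-/CD11b+ basophil-like cells) and at least 1.5-fold higher in 10 of 13 comparisons. *H2-Q4*, also in the Q region, had a median of 0.13 and *H2-T22* of the T region 0.32. The immunoproteasome subunits encoded beside the TAP genes, *Psmb9* and *Psmb8*, had medians of 0.23 and 0.11, between *Tap1* at 0.41 and *Tap2* at -0.36. Reads of shared sequence are uncertain: of the 50-base words in the last 500 bases of the longest coding transcript, 6.21% in *H2-Q7* (with *H2-Q5* and *H2-Q10*), 9.53% in *H2-D1* (among them *Adsl* and *Kcnk4*), 38.1% in *H2-T23* (*Rab33b*, *H2-T-ps* and *Hook2*) and 0.443% in *H2-K1* (*H2-D1*) also occurred in other genes, and none in the remaining members. How the counting treated reads of such words was not tested.

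**Figure D4:**
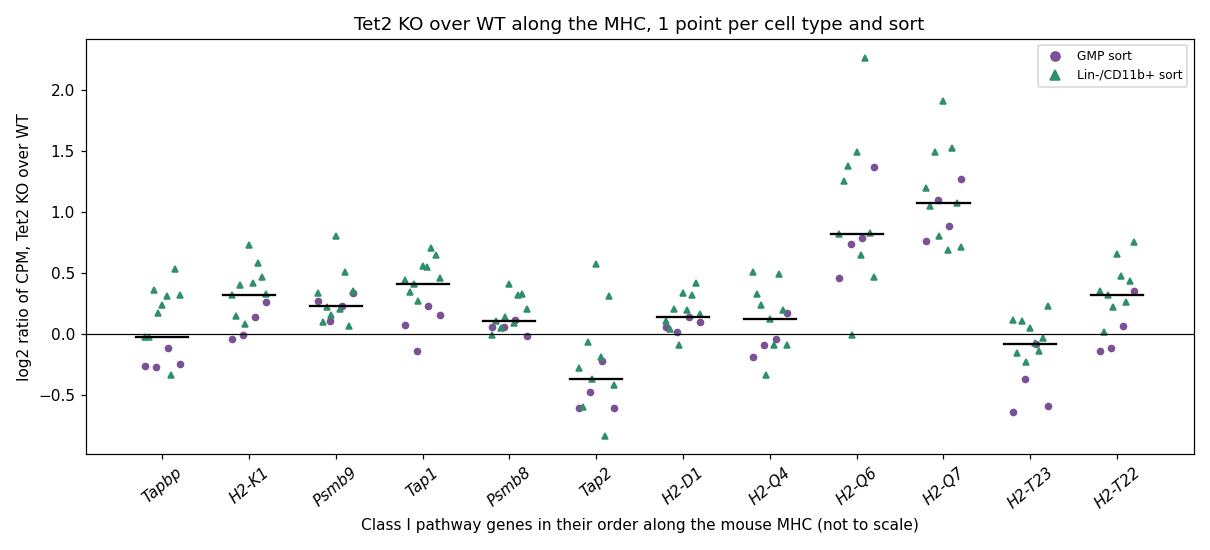
Log2 ratio of *Tet2* KO over WT in the 13 comparisons (points, with the sorts told apart by marker) and their median (line) for members and other class I pathway genes in their order along the MHC, evenly spaced. *H2-Q6* and *H2-Q7* stand apart with medians of 0.82 and 1.07, and the other medians lie between -0.36 and 0.41.

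The rest of the pathway was described by 8 lists, counted at 1.5-fold with the backgrounds above. Of these, the interferon-stimulated and MHC class II genes had not been left out of the clustering. Of the 5 genes of the immunoproteasome and its PA28 activator none was past 1.5-fold in 12 of the 13 comparisons, with 2 higher in neutrophil-like cells, and the 8 chaperones and trimming enzymes of the endoplasmic reticulum behaved alike, with 4 higher and 1 lower in neutrophil-like cells alone. In HSPC-like cells *Psmb8* and *Psmb9*, which replace constitutive subunits when interferon acts, had log2 ratios of 0.06 and 0.27 in the GMP sort and -0.01 and 0.34 in the Lin-/CD11b+ sort. Apart from neutrophil-like cells, these genes stayed within 1.5-fold where *H2-Q7* was past it, as did the 3 constitutive catalytic subunits of the proteasome in all 13 comparisons. The 4 interferon receptor genes were past 1.5-fold in Lin-/CD11b+ basophil-like cells (1 lower), plasma cell-like cells (2 higher) and cluster 13 (1 higher). Among other class I heavy chains in HSPC-like cells the counts were 0 of 7 higher and 1 lower (median log2 ratio -0.14) in the GMP sort and 2 of 7 higher and 0 lower (median log2 ratio 0.36) in the Lin-/CD11b+ sort. *Cd1d1*, a class I-like chain that presents lipids, reached the count minimum in 12 comparisons, was below WT in all of them, and was past 1.5-fold lower in 8. Its log2 ratio was -0.64 in HSPC-like cells of the GMP sort, -0.69 and -0.62 in mono-biased GMP-like progenitors of the GMP and Lin-/CD11b+ sorts, -1.13 and -1.05 in basophil-like, -0.66 in monocyte-like, -0.63 in plasmacytoid DC-like and -0.97 in plasma cell-like cells. It was within 1.5-fold in neutro-biased GMP-like progenitors (-0.50 and -0.30), in HSPC-like cells sorted as Lin-/CD11b+ (-0.22) and in cluster 13, where the ratio was nearest to 0 at -0.0023 (-0.88 to 0.87), and of all 12 the intervals of the Lin-/CD11b+ HSPC-like, neutro-biased, monocyte-like and cluster 13 ratios crossed 0.

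Of the regulators of class I promoters 0 to 4 were past 1.5-fold higher and 0 to 2 lower in a comparison. The counts were 2 of 14 higher and 0 lower (median log2 ratio 0.04) in HSPC-like cells of the GMP sort and 3 of 14 higher and 0 lower (median log2 ratio 0.35) in those of the Lin-/CD11b+ sort. They were largest in neutrophil-like cells, with 4 of 12 higher and 2 lower (median log2 ratio 0.26), and plasma cell-like cells, with 4 of 10 higher and 0 lower (median log2 ratio 0.44), types with backgrounds of 23% and 15.9% higher. For interferon-stimulated genes the counts in HSPC-like cells were 4 of 27 higher and 3 lower (median log2 ratio 0.12) in the GMP sort and 11 of 28 higher and 0 lower (median log2 ratio 0.42) in the Lin-/CD11b+ sort. Named from this list, the GTPase *Iigp1* had log2 ratios of 1.94 and 2.97 there, but *Usp18*, *Irf7* and *Ifit2* had -1.57, -1.29 and -0.94 in the GMP sort, so that genes of the list went both ways. Plasmacytoid DC-like cells had 13 of 23 higher and 0 lower (median log2 ratio 0.80), led by *Rtp4* at 3.75 (1.12 to 9.12, on 1 and 22 UMIs). Lin-/CD11b+ basophil-like cells had 1 of 14 higher and 5 lower (median log2 ratio -0.41), and *H2-Q7* was 2.88-fold higher in these cells. Whether the genes of this list and the members share a cause was not tested. MHC class II genes had 4 of 7 higher and 0 lower (median log2 ratio 1.54) in Lin-/CD11b+ HSPC-like cells, with *Cd74*, the invariant chain, at 3.04 and *H2-Aa* at 2.40, and 0 of 6 higher and 3 lower (median log2 ratio -0.80) in basophil-like cells, with *Cd74* at -2.58.

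Further named pathway genes past 1.5-fold were *H2-Eb1*, an MHC class II chain, higher in Lin-/CD11b+ HSPC-like cells (2.87 log2), plasmacytoid DC-like cells (2.05) and cluster 13 (2.04). It was lower in Lin-/CD11b+ basophil-like cells at -1.14 (-2.41 to 0.08, on 15 and 11 UMIs). The GTPase *Igtp* was higher in neutro-biased GMP-like progenitors (0.75 and 1.16). In mono-biased GMP-like progenitors *H2-Eb1* had 2.55 (0.90 to 4.90, on 3 and 37 UMIs) in the GMP sort and 2.38 in the Lin-/CD11b+ sort, and in monocyte-like cells 3.14 (1.501 to 5.47, on 3 and 46 UMIs). WT held few UMIs of it there. *H2-Q6* had 0.79 and 1.38 in neutro-biased GMP-like progenitors and 1.37 and 2.27 in basophil-like cells. Higher genes of single types were *Ciita*, the MHC class II transactivator, in plasmacytoid DC-like cells (2.24), *Eif2ak2* in plasma cell-like cells (1.80) and *Zbp1* in basophil-like cells of the GMP sort (2.78). *Ifi27l2a* was higher in neutrophil-like (1.26), basophil-like (1.05) and plasma cell-like cells (1.57) of the Lin-/CD11b+ sort. On the low side stood *Rela*, an NF-kappa B subunit, in neutro-biased GMP-like progenitors of the GMP sort (-0.62), *Rfx5*, a subunit of the factor that binds the X box, in monocyte-like cells (-0.67), and *Rfxank*, another of its subunits, in basophil-like cells of the GMP sort (-1.06). *Irf7*, an interferon regulatory factor, was lower in neutrophil-like cells (-1.11), and *Xaf1*, an apoptosis factor, was lower (-1.03) in plasma cell-like cells.

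HSPC-like cells came from clusters 3, 7 and 8, whose mix differed between libraries: cluster 8, led by stem cell genes such as *Hlf* and *Meis1*, held 19 of 258 cells in WT GMP, 5 of 476 in *Tet2* KO GMP, 110 of 327 in WT Lin-/CD11b+ and 300 of 716 in *Tet2* KO Lin-/CD11b+. Within clusters the log2 ratio of *H2-Q7* was 0.81 (cluster 3) and 0.76 (cluster 7) in the GMP sort and 1.71, 0.96 and 1.23 in clusters 3, 7 and 8 of the Lin-/CD11b+ sort, each above 0. For *Tap2* the ratios in the same order were -0.51, -0.64, -0.60, -0.32 and -0.11. All 10 HSPC markers were detected in HSPC-like cells of the GMP sort, with sums of 956 and 796 CPM in WT and *Tet2* KO. Basophil-like cells of that sort had larger HSPC sums, at 2386 and 2291 CPM. In HSPC-like cells the neutro-biased GMP sum was 15331 and 18239 CPM in the GMP sort and 7412 and 6896 CPM in Lin-/CD11b+. The name HSPC-like is thus less certain for the GMP sort, which took Sca1- cells, and its HSPC-like cells need not match those of Lin-/CD11b+. Between the sorts of a mouse, over 4 types and both genotypes, levels of a member differed by at most 1.44-fold for *H2-Q7*, 1.16-fold for *H2-D1*, 1.22-fold for *B2m*, 1.30-fold for *H2-K1*, 1.38-fold for *Tap1*, 1.498-fold for *Tapbp*, 1.55-fold for *Tap2*, 1.77-fold for *Nlrc5* where it reached the count minimum and 1.93-fold for *H2-T23*, the last in HSPC-like cells of *Tet2* KO. The 3 cells with most *H2-Q7* UMIs held at most 33.3% of them in any sum compared, and with the 3 cells of each sum that held most UMIs of all members left out, *H2-Q7* was past 1.5-fold in all 13.

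Markers of other cell types moved with genotype in places, and the sums are given as WT and *Tet2* KO. The sum of 9 neutrophil markers was higher in *Tet2* KO in mono-biased GMP-like progenitors of the GMP sort (52.4 and 315 CPM) and the Lin-/CD11b+ sort (319 and 1005 CPM), in neutro-biased GMP-like progenitors of the GMP sort (497 and 1768 CPM) and the Lin-/CD11b+ sort (1769 and 5925 CPM), in monocyte-like (853 and 5263 CPM) and in plasmacytoid DC-like cells (307 and 536 CPM). It was lower in plasma cell-like cells (3621 and 1582 CPM) and cluster 13 (2769 and 943 CPM), and *H2-Q7* was higher in *Tet2* KO in all of these types. *H2-Q7* was at 70.7 CPM in neutrophil-like cells of *Tet2* KO, the type that the markers define. The sum of 10 monocyte markers was 1523 and 2549 CPM and 1710.4 and 2455 CPM in neutro-biased GMP-like progenitors of the GMP and Lin-/CD11b+ sorts and 865 and 1889 CPM in plasma cell-like cells. The sum of 10 HSPC markers was 172 and 605 CPM in plasmacytoid DC-like, 54.3 and 179 CPM in monocyte-like, 205 and 323 CPM in mono-biased GMP-like progenitors of the GMP sort and 189.8 and 339 CPM in those of the Lin-/CD11b+ sort, each time higher in *Tet2* KO, and HSPC-like cells were among the types highest in *H2-Q7*. In neutro-biased GMP-like progenitors the HSPC sum was 171 and 157 CPM in the GMP sort and 121 and 126 CPM in Lin-/CD11b+, and in neutrophil-like cells 81.5 and 49.8 CPM. The sum of 10 conventional DC markers was 132 and 366 CPM in Lin-/CD11b+ HSPC-like cells and 1706 and 5167 CPM in plasmacytoid DC-like cells. The difference was that of the 4 MHC class II pathway genes on that list: without them, a split made after the sums were seen, it was 60.5 and 46.1 CPM and 261 and 266 CPM. In HSPC-like cells of the GMP sort, where *H2-Q7* was 1.70-fold higher, the monocyte sum was 580.3 and 979 CPM, the neutrophil sum 49.9 and 54.7 CPM, the erythroid sum 52.7 and 28.3 CPM and the eosinophil sum 38.3 and 8.84 CPM. In those of the Lin-/CD11b+ sort the monocyte and neutrophil sums were 517 and 509 CPM and 291 and 285 CPM, and the erythroid sum 149 and 226 CPM. Neutrophil-like cells, with the largest *H2-Q7* ratio, differed in many of these sums: the plasma cell sum was 650.1 and 2946 CPM, the basophil and mast cell sum 152 and 505 CPM, the neutro-biased GMP sum 2156 and 3980.1 CPM and the mono-biased GMP sum 376 and 723 CPM. In Lin-/CD11b+ basophil-like cells the eosinophil sum was 105 and 1578 CPM, the plasma cell sum 3051 and 348 CPM, the neutro-biased GMP sum 4936 and 7656 CPM and the mono-biased GMP sum 1601 and 2997 CPM, so that in this type sums moved both ways. In those of the GMP sort the eosinophil sum was 1078 and 1199.9 CPM and the plasma cell sum 11.5 and 16.5 CPM, and *H2-Q7* was 2.42-fold higher there. The part of these markers in the member ratios was not tested.

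Across the 29 sums of a library and cell type with at least 50 cells, the genes most like the members were ranked by Pearson's r of log2(CPM + 10) with the mean standardized profile of the 9, as a description, since the sums share mice and libraries. They were *H2-T22* (0.94), *Irgm1* (0.91), *Kdm2a* (0.87), *Zmiz2* (0.87) and *Irf1* (0.86). Taken alone, *H2-Q7* was closest to *H2-Q6* (0.95), then to *H2-K1* (0.87), while the r between *H2-K1* and *H2-D1* was 0.41 and that between *Tap1* and *Tap2* 0.49.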

How the data were processed

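Libraries were made with the 10x 3' chemistry (kit v2 per the labels, v3.1 per the design text). The deposited values are raw UMI counts per gene and cell, which the authors made with Cell Ranger 3.1.0 on mm10 and loaded in Seurat, per the submitters' processing notes. The deposited cell table gave each cell's library. The study's methods name a limit of 5% mitochondrial counts, but 44 to 180 cells of each deposited library were at or above it, and they were kept.

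Cells were scaled to 10000 counts and clustered (scanpy 1.11.5, leidenalg 0.10.2, 2000 variable genes without the class I pathway genes, 30 components, 30 neighbours, resolution 0.8). The genes left out were the members and their lists other than MHC class II and interferon-stimulated genes. Clusters were named from at least 3 markers at 1.5-fold, by a rule chosen after marker levels were seen. Scrublet called 0.346% of cells, too few to use, so no doublets were removed. UMIs were summed per library and type and divided by the total of that sum. Ratios needed at least 20 UMIs in both libraries together and carried conditional binomial intervals, levels exact Poisson and shares exact Clopper-Pearson intervals. These cover counting error only. The ratio code was tested on simulated data. Alternatives were TMM scaling (edgeR 4.0.16), other filters, folds, clusters, gates and cells kept.

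Members, lists and the rule for named pathway genes (the 3 highest and 3 lowest ratios per comparison, first those past 1.5-fold in both sorts) were chosen with earlier results of these data known. Of the genes so chosen, those that describe a list are given. Positions came from a GENCODE annotation of GRCm38, the build of mm10, and promoters from RefSeq.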

Additional observations from a re-analysis of the deposited data

Results flagged for a closer look

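*H2-D1* differed in direction between cell types of the Lin-/CD11b+ sort. In monocyte-like cells its log2 ratio of *Tet2* KO over WT was -0.086, and in plasma cell-like cells it was 0.42. Neither interval reached equal levels, and each type was 1 library per genotype, so the difference between the types was not tested. Over all genes the median ratio was 0.13 on the log2 scale in plasma cell-like cells and 0.03 in monocyte-like cells.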

How the results depend on the processing

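No paired analysis was possible because each group was 1 library. *H2-Q7* was past 1.5-fold higher in every comparison under all settings run except the mean over cells of CPM, which gave 12 of 13, and *B2m* was above 0 in every comparison under all of them. Clusters at resolution 1.2 and cells gated on markers gave 12 comparisons in place of 13. The type names depended on the method: 85.66% of cells kept their name at resolution 1.2 and 87.62% with clusters from all variable genes. Only 58.25% kept it when cells were gated on markers. Member ratios past 1.5-fold numbered 22 higher and 6 lower. At 2-fold these were 9 and 0, and the lower ones were 3 with TMM scaling and 3 at resolution 1.2. Comparisons in which *H2-K1* was past 1.5-fold numbered 2, and 0 with TMM scaling, 1 with gated cells and 1 without cells at 5% mitochondrial UMIs. *H2-T23* had 2 lower ones, 0 with TMM scaling and 1 at resolution 1.2, and gated cells gave 1 higher. In HSPC-like cells its log2 ratio was 0.12 in the other sort, the reverse direction. *Tap1* had 2, and 1 with TMM scaling, with a filter of 100 UMIs and with gated cells, the last in neutrophil-like cells (0.72) and in neither of the 2. *Tap2* had 4 lower ones, and 2 with the mean over cells, 2 at resolution 1.2 and 2 without cells at 5% mitochondrial UMIs. *Tap2* was past 1.5-fold higher in 1 comparison with the mean over cells, clusters from all variable genes, resolution 1.2, the top 5% of doublet scores left out, or the 3 cells with most member UMIs left out. *Nlrc5* had 5, and 3 with the mean over cells, 10 with a filter of 1 UMI and 1 with a filter of 100 UMIs. Other pathway genes past 1.5-fold numbered 167 higher and 37 lower, and a filter of 100 UMIs left 76 and 10, while a filter of 1 UMI gave 68 lower. HSPC-like over monocyte-like cells of WT Lin-/CD11b+ gave log2 ratios of -0.77 at resolution 1.2 and -0.61 with gated cells for *H2-D1*, and -0.29 at resolution 1.2 for *B2m*. Shares of HSPC-like cells with an *H2-Q7* UMI were 73.6%, 87.8%, 60.9% and 83.9% without thinning. The cause of these moves was not tested, apart from the fewer or more genes that a filter admits. Depth limits *Nlrc5* most, and 1 mouse per genotype limits every ratio.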

Other observations

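Cell types with fewer than 50 WT cells in the Lin-/CD11b+ sort stood in no comparison. Conventional DC-like cells (16 in WT, 80 in *Tet2* KO) held *H2-T23* at 301 CPM in WT (208 to 423) and 211 CPM in *Tet2* KO (178 to 249), *Tap1* at 73.1 CPM in WT (31.6 to 144) and 202 CPM in *Tet2* KO (169.8 to 239) and *Tapbp* at 247 CPM in WT (163 to 359) and 228 CPM in *Tet2* KO (193 to 267). By CPM over all UMIs, the *Tet2* KO values of these genes were the highest of any type in that library. Over the UMIs left without the abundant genes, its plasma cell-like cells held *H2-T23* at 360 CPM (318 to 405) and *Tapbp* at 298 CPM (260 to 339). Conventional DC-like cells were not among the types given such levels. B cell-like cells (37 and 63) held *H2-Q7* at 141 CPM in WT (103 to 188) and 245 CPM in *Tet2* KO (206 to 288). Cluster 12, led by *Ccl5* and *Wfdc17* and holding monocyte and T or NK cell genes (47 and 246 cells), held *H2-D1* at 1971 CPM in WT (1830.0 to 2121) and 1867 CPM in *Tet2* KO (1811 to 1925), *H2-K1* at 857 CPM in WT (765 to 957) and 966 CPM in *Tet2* KO (925 to 1007) and *B2m* at 4293 CPM in WT (4083 to 4511) and 4981 CPM in *Tet2* KO (4888 to 5076).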
